A study of Caenorhabditis elegans with 2 samples.

Results

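Cytosolic ribosomal protein genes encode the proteins of the large and the small subunit of the ribosome that works in the cytoplasm. They were taken here as the protein-coding genes of *Caenorhabditis elegans* whose names begin with rpl- (large subunit) or rps- (small subunit). The pattern gave 78 of the 19973 protein-coding genes of the nuclear genome, 47 for the large and 31 for the small subunit. Each gene was given a promoter window from 1000 bp upstream to 200 bp downstream of its annotated 5′ end, and a gene was said to have a peak where the summit of a deposited ChIP-seq peak lay in that window. The rule uses the names alone, although the gene group was chosen with earlier results of these data known.

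The peaks are places called by the authors in chromatin precipitated through the green fluorescent protein tag of a REF-2 fusion and sequenced. The worms were OP520 hermaphrodites, which carry the mutation unc-119(tm4063) on chromosome III and the transgene wgIs520, and the fusion bears a GFP-FLAG tag at its C terminus. Whole late embryos were collected 3 h after synchronization by bleaching of eggs, in 1 group of 2 biological replicates. The sources used here did not give the promoter that drives the transgene or its copy number. Control or untagged samples were not analysed here, so the signal at these promoters without the fusion protein was not measured. With 1 group and no other condition there is no comparison of conditions to test, and the values that follow describe these peak lists.

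A ribosome is built from several ribosomal RNAs and a copy each of most ribosomal proteins, so their genes have to be expressed strongly and in balance wherever cells grow. In animals these genes are short, strongly transcribed housekeeping genes, and several hold snoRNA genes in their introns. REF-2 is a zinc finger protein of the Zic family, known in this worm for roles in epidermal cells and in the making of neurons.

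In the optimal list, 2129 peaks that the authors labelled as thresholded on reproducibility, 38 of the 78 ribosomal protein genes had a promoter peak, against 1257 of all protein-coding genes. That is 48.7% of the ribosomal protein genes (95% interval 37.2 to 60.3) against a background of 6.29%. Strong peaks stood at rpl-3, rpl-35, rpl-15, rpl-20 and rps-19, and the other 40 genes had none that reached the list. Intervals of shares are exact (Clopper-Pearson, 95%). They reflect counting error alone and treat genes as separate although some share a summit.

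Each replicate on its own gave a like count. Among the 2129 strongest peaks of replicate 1, 36 ribosomal protein genes had a promoter summit (46.2%, background 6.51%), and among those of replicate 2, 37 had one (47.4%, background 5.98%). In both replicates at the same time the count was 32, all of them genes with an optimal peak, against 4.86% of all protein-coding genes. In 1 replicate or the other it was 41, of which rps-3, rps-11, rps-20 and rpl-36.A were the 4 with no optimal peak. Conversely, rps-21 was the 1 gene with an optimal peak in the strongest peaks of neither replicate. In the relaxed lists, which hold 30000 peaks each and are meant to include background, 67 of the 78 genes had a summit in the pooled list (85.9%, background 35.0%). The relaxed lists of replicate 1 and replicate 2 gave 67 genes (85.9%, background 35.4%) and 68 genes (87.2%, background 34.3%).

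**Figure D1:**
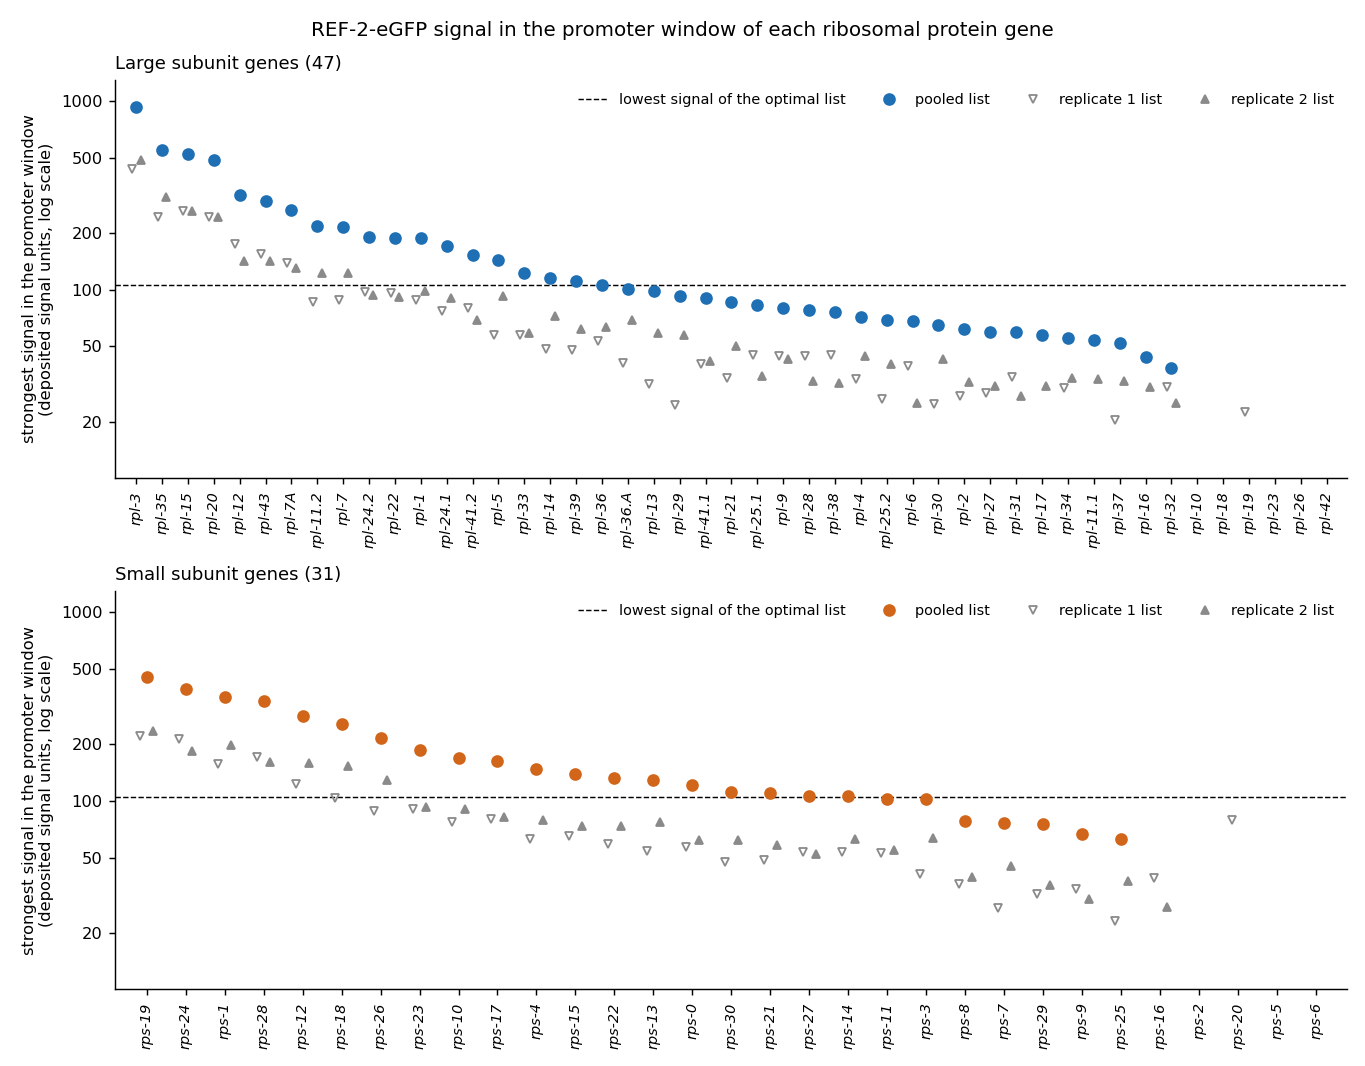
Strongest signal in the promoter window of each of the 78 genes, large subunit above and small subunit below, ordered by the pooled list. Circles are the pooled relaxed list, open and filled triangles the relaxed lists of replicates 1 and 2, the axis is logarithmic in the authors' signal units and a gene with no mark for a list had no summit there. The dashed line is the lowest signal of the optimal list, 105.5, and rpl-3 at 926 stands above all others.

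The sequences under the summits are shown for some of the strong peaks and for some that carry a marked word, since both recur in the results. They are not the strongest in order, as rps-19 (rank 43) and rps-24 (rank 68) are left out and rps-1 (rank 86) is shown. Among strong peaks not printed, rps-24, rps-28, rpl-12, rpl-43 and rps-12 hold none of the marked words in their 101 bases. The choice thus does not show how common a word is at strong peaks. Each is 101 bases of the WBcel235 (ce11) genome from RefSeq, centred on the summit of the optimal peak and read 5′ to 3′ on the strand of the gene named, with no annotated exon of a protein-coding gene inside. Capitals mark the 8-letter words TACGGTAA and GGCCTAAA, the 11-letter words ACGGTAACACT and ACGTTGAATAC, and the Zic-type core (CAGCAGG or CAGCGGG), on either strand.
rpl-3 (chrIII:3867532-3867632, plus strand): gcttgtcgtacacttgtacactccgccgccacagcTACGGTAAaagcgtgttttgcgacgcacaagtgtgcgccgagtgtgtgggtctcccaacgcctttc
rpl-20 (chrIV:4750001-4750101, minus strand): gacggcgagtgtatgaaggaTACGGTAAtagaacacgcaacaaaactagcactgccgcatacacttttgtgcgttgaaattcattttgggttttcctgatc
rps-1 (chrIII:4475630-4475730, plus strand): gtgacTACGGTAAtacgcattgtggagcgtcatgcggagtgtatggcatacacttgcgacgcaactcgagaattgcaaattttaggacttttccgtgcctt
rpl-35 (chrIII:7854633-7854733, plus strand): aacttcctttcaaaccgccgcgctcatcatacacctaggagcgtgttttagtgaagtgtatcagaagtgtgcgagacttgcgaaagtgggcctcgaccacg
rpl-15 (chrIV:654869-654969, minus strand): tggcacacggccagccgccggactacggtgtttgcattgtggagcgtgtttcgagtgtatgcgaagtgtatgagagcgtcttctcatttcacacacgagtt
rpl-11.2 (chrX:2242942-2243042, minus strand): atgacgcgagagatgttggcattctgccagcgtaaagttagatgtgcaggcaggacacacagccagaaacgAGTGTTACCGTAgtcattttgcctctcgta
rps-23 (chrIV:12391278-12391378, minus strand): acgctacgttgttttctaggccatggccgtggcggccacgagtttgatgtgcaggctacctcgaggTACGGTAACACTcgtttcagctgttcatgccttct
rps-13 (chrIII:6375126-6375226, minus strand): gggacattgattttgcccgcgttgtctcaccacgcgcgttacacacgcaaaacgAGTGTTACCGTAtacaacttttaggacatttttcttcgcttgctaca
rpl-7A (chrIV:4390606-4390706, minus strand): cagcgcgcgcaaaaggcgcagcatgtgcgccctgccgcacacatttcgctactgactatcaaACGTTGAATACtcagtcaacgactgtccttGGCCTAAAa
rps-4 (chrIV:7084857-7084957, minus strand): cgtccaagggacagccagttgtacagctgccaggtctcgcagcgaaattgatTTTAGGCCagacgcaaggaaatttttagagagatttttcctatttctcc
rps-0 (chrIII:4754305-4754405, minus strand): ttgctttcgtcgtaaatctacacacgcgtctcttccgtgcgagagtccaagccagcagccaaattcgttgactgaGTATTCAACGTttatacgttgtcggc
rpl-39 (chrV:7776314-7776414, minus strand): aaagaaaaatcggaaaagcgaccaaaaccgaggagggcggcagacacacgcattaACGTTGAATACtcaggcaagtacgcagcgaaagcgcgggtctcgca
rps-21 (chrIII:7189860-7189960, minus strand): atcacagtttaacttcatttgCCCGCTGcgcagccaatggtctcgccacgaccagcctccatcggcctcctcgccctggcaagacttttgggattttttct
The first 3 hold TACGGTAA near the summit, and the next pair is stronger than most but holds none of the marked words in these 101 bases. The next 3 run TACGGTAA on into ACGGTAACACT, which overlaps it by 7 letters, on the gene's own strand in rps-23 and on the other strand in rpl-11.2 and rps-13. rpl-7A and rps-4 hold GGCCTAAA, and rpl-7A, rps-0 and rpl-39 hold ACGTTGAATAC or its reverse complement. rps-21 holds the Zic-type core.

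Among large subunit genes the peaks ranged from a signal of 106 to 926. The highest was that of rpl-3, whose protein lies near the peptidyl transferase centre of the ribosome. Its summit on chromosome III at 3867582, -272 bp from the 5′ end, stood at a signal of 926 (rank 3 of the optimal list), with 438 in replicate 1 and 488 in replicate 2. The peak spanned 3867433 to 3867729, and its summit lay in the promoter window of no other protein-coding gene. That made rpl-3 the only ribosomal protein gene among the 10 strongest optimal peaks.

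rpl-35 encodes a protein at the exit of the tunnel through which the new chain leaves the ribosome. Its summit (III 7854683, -451 bp) reached a signal of 551 (rank 25), 243 in replicate 1 and 309 in replicate 2. rpl-15 (IV 654919, -343 bp) followed with 523 (rank 28), 263 and 260 in replicates 1 and 2. rpl-20 (IV 4750051, -273 bp) had 489 (rank 32), 242 and 243 in the replicates. In rpl-15 and rpl-20 the replicates differed by less than 4 signal units, and both summits lay also in the window of a divergent neighbour, K11H12.8 and Y17G9B.5.

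rpl-12, which encodes a protein at the base of the stalk where translation factors bind, reached 317 signal units (rank 136, 176 in replicate 1 and 143 in replicate 2). Its summit (IV 13240699) lay at -48 bp, the closest to a 5′ end of any ribosomal protein gene, and in the window of lin-54, a DNA-binding subunit of the DREAM repressor complex. rpl-43 (II 14154539) had 296 (rank 165, 154 and 142 in the replicates), and its summit at -755 bp was the farthest from the 5′ end. rpl-7A (IV 4390656, -66 bp) had 265 (rank 251, 139 and 131). These 3 were all higher in replicate 1 than in replicate 2.

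rpl-11.2 encodes the partner of 5S rRNA that joins the large subunit together with the rpl-5 product. Its signal (X 2242992, -374 bp) was 217 (rank 436), 86.5 in replicate 1 and 122 in replicate 2. rpl-7 (I 110749, -289 bp) was close to it with 214 (rank 449), 88.6 and 122 in the replicates. rpl-24.2 (I 9669278, -137 bp) had 190.0 (rank 597), 97.6 and 93.7. The remaining large subunit genes with an optimal peak were rpl-22 (188), rpl-1 (187), rpl-24.1 (170), rpl-41.2 (153), rpl-5 (143), rpl-33 (123), rpl-14 (116), rpl-39 (112) and rpl-36 (106). rpl-1 encodes the protein of the mobile stalk beside the exit site for tRNA, and rpl-39 a small protein inside the peptide tunnel.

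Small subunit genes reached lower maxima, from 106 to 453. The highest was rps-19, named for a protein of the subunit's head whose human counterpart is mutated in Diamond-Blackfan anaemia. Its summit (I 9626077, -281 bp, shared with hsr-9) reached a signal of 453 (rank 43), 220.0 in replicate 1 and 236 in replicate 2. rps-24 (IV 385278, -609 bp) had 392 (rank 68), 214 and 173 in the replicates, and a second summit at -326 bp with a signal of 349. rps-1 (III 4475680, -238 bp) had 357 (rank 86), 158 and 198. These 3 and the 4 highest large subunit genes made up the 7 ribosomal protein genes in the first 100 of the optimal list.

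rps-28, a protein near the exit of the mRNA channel, had a signal of 341 (IV 1659247, -444 bp, rank 102), 172 in replicate 1 and 161 in replicate 2. rps-12 (III 5679121, -177 bp) had 281 (rank 204), 123 and 159. rps-18 (IV 14825055, -624 bp) had 255 (rank 277), 104 and 154, and is among the genes whose ranks differed most between replicates. It encodes a protein of the head that touches the large subunit. rps-26 (I 14759501, -429 bp) had 217 (rank 437), 88.6 and 130 in the replicates.

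rps-23 encodes a protein of the decoding centre, where codon and anticodon are checked. Its summit (IV 12391328, -275 bp, shared with dpm-3) reached a signal of 186 (rank 627), 90.7 in replicate 1 and 92.7 in replicate 2. rps-10 (I 4584853, -348 bp) had 170 (rank 762), 77.5 and 90.4, and rps-17 (I 6220972, -208 bp) had 162 (rank 824), 80.7 and 82.0. The others were rps-4 (148), rps-15 (139), rps-22 (132), rps-13 (129), rps-0 (122), rps-30 (112), rps-21 (111), rps-27 (107) and rps-14 (106). rps-30 is known for being made as a fusion with a ubiquitin-like protein.

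The 38 genes rested on fewer peaks than genes. Their strongest summits were 35 distinct places, because 3 pairs of a large and a small subunit gene transcribed away from each other shared 1 summit each. rpl-24.1 and rps-10 shared a summit with a signal of 170, rpl-39 and rps-30 one of 112, and rpl-36 and rps-14 one of 106. With the additional summits at rps-24 and rpl-1 (122 at -479 bp) the promoter windows held 37 optimal summits. Over these 37 the median signal was 188, against 153 at the 935 optimal summits in other promoter windows and 146 over the whole list. The ribosomal protein genes lay from the top to the end of the list, but more of them towards its top. Of the 37 summits, 17 were in the first 500 of its 2129 ranks and 8 in the first 100. Counted by gene, 16 were in the first 500 ranks and 9 past rank 1500.

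The optimal list ended at a signal of 105.5, and several ribosomal protein genes lay just on either side of that value. Just inside were rpl-36 and rps-14 with their shared summit at 106 and rps-27 at 107. Just outside were rps-11 (103 in the pooled relaxed list, 52.9 in replicate 1 and 54.8 in replicate 2), rps-3 (103, 40.9 and 63.9) and rpl-36.A (100.5, 41.0 and 68.9). rpl-13 (99.1, 31.7 and 58.8) and rpl-29 (93.0, 24.4 and 57.5) came next. All 5 had a higher signal in replicate 2 than in replicate 1, as did most peaks of the optimal list (median log2 ratio 0.18). The rps-3 product lies at the entry of the mRNA channel.

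The comparison of the subunits asks whether genes for the large and the small subunit were marked alike. In the optimal list 19 of 47 large subunit genes (40.4%, interval 26.4 to 55.7) and 19 of 31 small subunit genes (61.3%, 42.2 to 78.2) had a promoter peak, both above the background of 6.29%. The difference, large minus small, was -20.9 percentage points, with a Newcombe 95% interval of -40.6 to 1.67 that includes 0. In the strongest peaks of replicate 1 the difference was -25.1 points (-44.4 to -2.55; 17 large and 19 small), and in those of replicate 2 it was -17.6 points (-37.8 to 4.76; 19 and 18). In the pooled relaxed list the sign changed, with 41 large and 26 small subunit genes and a difference of 3.36 points (-11.99 to 21.2). In the relaxed lists of replicates 1 and 2 it was -7.34 points (-21.9 to 9.92) and 0.137 points (-14.5 to 17.5). Among genes with an optimal peak the order of signals was the other way round, with a median of 190.0 for the large and 162 for the small subunit (median ranks 597 and 824). In the optimal list the subunits thus did not differ in share beyond counting error, while in replicate 1 alone the interval excluded 0.

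**Figure D2:**
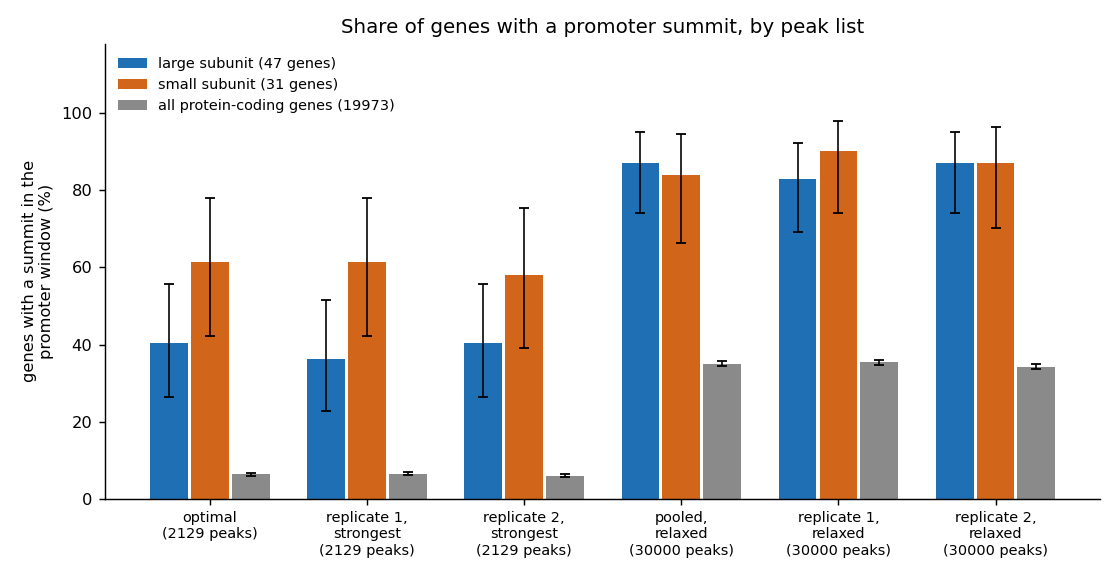
Percentage of large subunit, small subunit and all protein-coding genes with a summit in the promoter window, for each of 6 peak lists. Bars start at 0 and error bars are exact Clopper-Pearson 95% intervals; the subunit intervals overlap in every list, and both stand above the background bar in every list, such as 40.4% and 61.3% against 6.29% in the optimal list.

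At the summits of ribosomal protein genes the replicates gave similar signals. All 37 optimal summits had a summit within 200 bp in both replicate lists. As log2 of replicate 2 over replicate 1, the signal ratio had a median of 0.16 (quartiles -0.02 to 0.38, range -0.31 to 1.39), beside 0.18 over the 2112 peaks of the optimal list found in both. Replicate 2 was higher at 27 of the 37 summits. Most of the 2112 peaks were higher in replicate 2 as well, with quartiles of -0.07 to 0.45, so this is no trait of the ribosomal protein genes. How signal was scaled from list to list is not known, so ranks within each list were read as well.

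**Figure D3:**
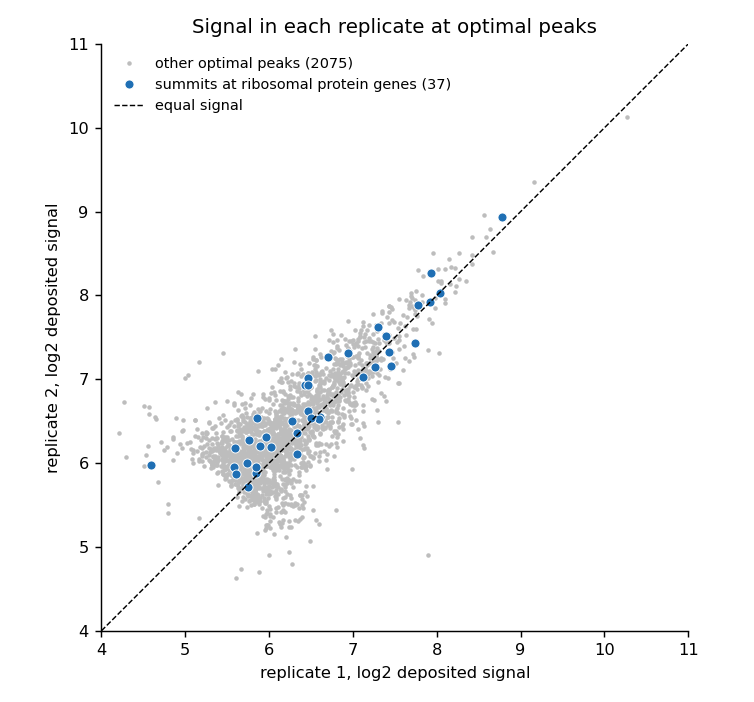
Deposited log2 signal in replicate 2 against replicate 1 at 2112 peaks of the optimal list found in both, with the 37 summits in promoter windows of ribosomal protein genes in blue and the line of equal signal dashed. The blue points follow the grey cloud along the line, and the summit shared by rpl-36 and rps-14 stands to its left at 24.1 in replicate 1 and 63.1 in replicate 2.

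The ranks differed most at rpl-36 and rps-14, where the summit nearest to the shared peak was rank 17842 in replicate 1 (signal 24.1) and rank 1859 in replicate 2 (63.1). Replicate 1 had a stronger summit elsewhere in both windows, with a signal of 53.5. It was the only summit past 2-fold once ratios were centred on the median of all peaks. rps-18 moved from rank 442 in replicate 1 to 183 in replicate 2, and rpl-5 from 1621 (57.8) to 733 (92.8). In the other direction rps-24 moved from rank 46 to 132, rpl-12 from 88 to 241 and rpl-41.2 from 780 (80.5) to 1494 (69.0). With 1 library on each side no test applies to these differences.

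The summits lay upstream of the genes and in a narrow band. Over the 38 genes the median position of the strongest summit was -283 bp from the annotated 5′ end (quartiles -372 to -228), and no summit lay downstream of it. Between -400 and -200 bp were 24 of them, or 63.2%, against 28.5% of the 1257 protein-coding genes with an optimal promoter peak. Those genes had a median of -250 bp with wider quartiles (-473 to -132), 4.93% of their summits lay downstream and 23.3% beyond -500 bp, against 4 ribosomal protein genes beyond -500 bp. The medians of the large (-285 bp) and the small subunit (-281 bp) were close. The annotated 5′ end need not be where transcription starts, since many transcripts of this worm are trans-spliced.

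**Figure D4:**
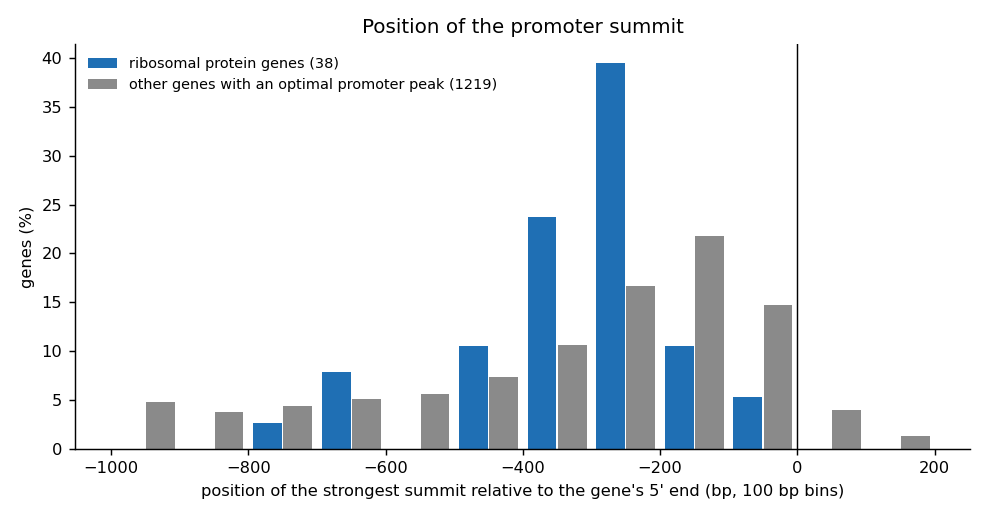
Position of the strongest optimal summit relative to the annotated 5′ end, in bins of 100 bp, as a percentage of the 38 ribosomal protein genes and of the 1219 other protein-coding genes with an optimal promoter peak. The ribosomal protein genes gather between -400 and -200 bp, with 63.2% there, and none lies right of 0.

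Many of the summits could belong to another gene as well. For 27 of the 38 genes (71.1%, interval 54.1 to 84.6) the strongest summit lay also in the promoter window of another protein-coding gene, against 624 of the 1257 protein-coding genes with an optimal promoter peak (49.6%). For 11 ribosomal protein genes it did not. Those 11 were rpl-3, rpl-35, rps-24, rps-18, rpl-11.2, rpl-24.2, rps-17, rpl-41.2, rps-4, rpl-14 and rps-21. Of these, the rps-18 summit at -624 bp lay past the 5′ end of its divergent neighbour sec-61.A, which stood 414 bp upstream of rps-18. Which gene a shared summit serves cannot be told apart from these lists. rps-1 shared its summit with ifet-1, a translational repressor of the germ line, and rpl-7 with rab-11.1, a small GTPase of membrane recycling.

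Noncoding genes also lay close to some of these summits. For 13 ribosomal protein genes an annotated noncoding gene lay within 200 bp of the summit. These were rps-1, rpl-11.2, rpl-7, rpl-1, rpl-24.1, rps-10, rpl-5, rps-13, rps-0, rpl-39 and rps-30, all beside an unclassified ncRNA gene, rps-26 beside the snoRNA gene F39B2.14 and rps-21 beside the piRNA gene 21ur-7304. Counted by summit this was 12 of 37 (32.4%), against 28.6% of all optimal summits. None of the 37 lay beside a tRNA gene, and of all optimal summits 113 (5.31%) did. At so low a share few would be seen among 37, so no difference is read from this. The share at other promoter summits is not given here. A snoRNA gene lay inside 13 of the 78 ribosomal protein genes, 8 of them with and 5 without an optimal peak. Of all 78, 38 had a peak (48.7%), and the share over all protein-coding genes that hold a snoRNA gene is not given here.

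Most ribosomal protein genes had an upstream neighbour transcribed away from them, with or without a peak. Of the 38 with an optimal peak, 30 had such a divergent neighbour and 7 a neighbour on the same strand. Of the 40 without, 22 had a divergent neighbour and 17 one on the same strand. Read the other way, 30 of 52 genes with a divergent neighbour had a peak (57.7%, interval 43.2 to 71.3; 9.66% of all protein-coding genes of that class). Among genes with a same-strand neighbour it was 7 of 24 (29.2%, 12.6 to 51.1; 3.78% of all). The share was thus lower with a same-strand neighbour, among ribosomal protein genes as over all genes, though the intervals of the ribosomal protein genes overlap. By subunit, 14 of 30 large and 16 of 22 small subunit genes with a divergent neighbour had a peak, and 4 of 15 and 3 of 9 with a same-strand neighbour.

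**Figure D5:**
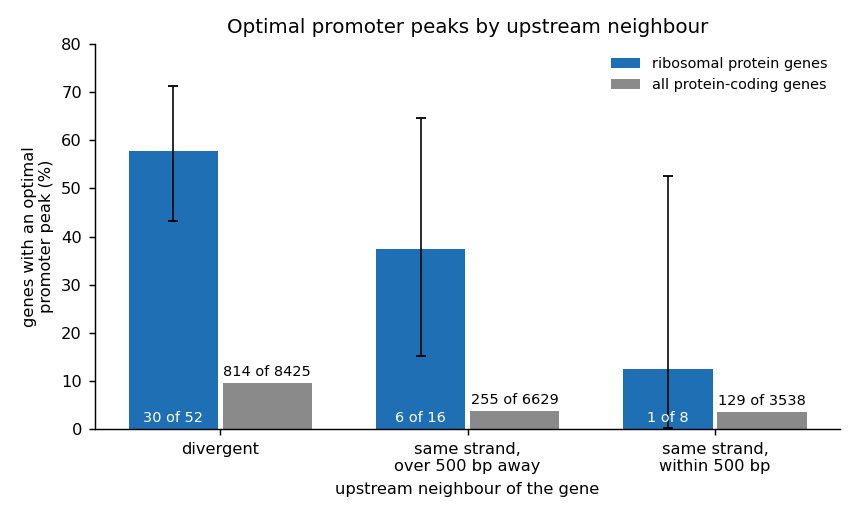
Percentage of genes with an optimal promoter peak by the upstream neighbour, for ribosomal protein genes (blue, exact Clopper-Pearson 95% intervals) and all protein-coding genes (grey). The blue bars are 57.7% for a divergent neighbour, 37.5% for a same-strand neighbour over 500 bp away and 12.5% for one within 500 bp.

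Where the same-strand neighbour ended within 500 bp upstream, an arrangement found in worm operons, 1 of 8 ribosomal protein genes had a peak of its own (12.5%, interval 0.316 to 52.7; 3.65% of all). That gene was rps-17, which lay 480 bp behind T08B2.11. rps-16, whose product reaches towards the tRNA in the decoding site, lay 109 bp behind fib-1, which encodes the rRNA methylase fibrillarin. The fib-1 promoter had an optimal peak with a signal of 431 (rank 54, -164 bp), at -1846 bp from rps-16 and so outside its window. rpl-25.1 lay 97 bp behind glit-1, whose promoter had a peak with a signal of 253 (rank 285). The genes at the head of the other 6 such runs, those of rps-2, rpl-19, rpl-27, rps-7, rps-17 and rpl-16, had no optimal promoter peak.

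Distance to the upstream neighbour and GC content of the whole promoter window were close between genes with and without a peak. The median distance to the upstream neighbour was 550 bp with and 562 bp without a peak, and the median GC content of the promoter window 37.1% and 36.7%. Among all protein-coding genes these were 732 bp and 37.4% with a peak and 953 bp and 34.7% without. Peaks stood on every nuclear chromosome, at 11 of 23 ribosomal protein genes on chromosome I (7.92% of all protein-coding genes there), 4 of 10 on II (6.21%), 10 of 18 on III (8.67%), 9 of 17 on IV (5.33%), 3 of 8 on V (3.87%) and 1 of 2 on X (7.98%). As a measure of how well reads can be placed, every stretch of 32 letters occurred once in the genome in 72 of the 78 promoter windows. The windows of rpl-7A (69.3% of stretches unique), rps-24 (81.0%) and rpl-37 (88.0%) fell under 90%, and the effect of this on their signal was not tested.

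Of the 40 genes without an optimal peak, 29 had a summit in the pooled relaxed list, where the background is 35.0%. Their signals ran from 103 at rps-11 down to 38.4 at rpl-32, whose summit ranked 28471 of 30000. Another 3 genes had a summit only in a replicate list. rps-16 had 39.1 in replicate 1 and 27.5 in replicate 2, and rpl-19 had 22.4 in replicate 1. The third, rps-20, stood out with a signal of 79.5 (rank 800) in replicate 1 and no summit in its window in replicate 2 or in the pooled list.

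No list had a summit in the promoter window of 8 genes. They were rpl-10, rpl-18, rpl-23, rpl-26 and rpl-42 of the large and rps-2, rps-5 and rps-6 of the small subunit. rpl-10 encodes a protein that joins the large subunit late in its assembly, and rps-6 the classical target of S6 kinase. rpl-18 had an optimal summit inside the gene instead, at 608 bp downstream of the 5′ end, with a signal of 110.

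Paralogous genes did not always carry the same mark. rpl-11.2 had an optimal peak of 217, whereas rpl-11.1, which has a closely related product, had a relaxed summit of 53.8 at 161 bp downstream of the 5′ end. rpl-41.1 and rpl-41.2 lie next to each other on the same strand, and the summit of rpl-41.2 (153) lay 846 bp downstream of the 5′ end of rpl-41.1, whose own strongest summit had 90.9. rpl-25.1 and rpl-25.2 both lacked an optimal peak, with relaxed summits of 82.6 and 69.4.

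Genes that work with the ribosomal proteins were marked to different degrees. Of 6 ribosomal proteins that the name pattern misses (rla-0, rla-1, rla-2, rack-1, ubl-1 and ubq-2), 0 had an optimal promoter peak (interval up to 45.9%, background 6.29%), and 5 had a relaxed summit (background 35.0%), from 40.8 at rla-0 to 84.9 at rack-1. Of 6 translation elongation factor genes 4 had an optimal peak (66.7%, 22.3 to 95.7; background 6.29%). These were eef-1A.2 (223) and eef-1A.1 (210), which encode the factor that delivers tRNA, eef-2 (194), the translocase, and eef-1G (193). eef-1B.1 lay just outside the list with 105.2 (rank 2148 of the pooled list).

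Genes of ribosome biogenesis and rRNA synthesis had an optimal peak in 5 of 26 cases matched from 30 names (19.2%, 6.56 to 39.4; background 6.29%). They were fib-1 (431), rbd-1 (183), rpoa-12 (146), a subunit of RNA polymerase I, lpd-6 (119) and nol-10 (110). Of 15 regulators of ribosome synthesis 2 had a peak (13.3%, 1.66 to 40.5), an interval that includes the background of 6.29%. Those 2 were larp-1 (265), which binds mRNAs of ribosomal proteins in mammals, and the cap-binding gene ife-4 (152). Of 70 mitochondrial ribosomal protein genes 5 had a peak (7.14%, 2.36 to 15.9), a share near the background of 6.29%. These 5 were mrpl-15 (311), mrps-35 (294), mrpl-18 (231), mrpl-55 (125) and mrpl-12 (116). The interval of the cytosolic ribosomal protein genes, 37.2 to 60.3%, does not overlap that of their mitochondrial counterparts, and the interval of the elongation factors includes it whole.

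The letters under the summits were counted in windows of 201 bp. The Zic-type core, CAGCAGG or CAGCGGG on either strand, was found in 2 of 37 windows at ribosomal protein genes (5.41%, interval 0.662 to 18.2). It was found in 6.52% of the 935 windows at other promoter summits, in 6.62% of all 2129 optimal summits and in 1.49% of all promoters at the same distance (-283 bp). GAGAGA was in 6 of 37 windows (16.2%, 6.19 to 32.01), against 38.3% at other promoter summits, 42.7% at all optimal summits and 12.3% of promoters. The interval at ribosomal protein summits thus includes the share over promoters and lies below that at other summits.

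The other motifs were close to other promoter summits in share. TATAAA was in 10.8% against 11.3%, CCAAT in 27.0% against 29.4%, GGGCGGG in 5.41% against 5.67%, CACGTG in 2.70% against 3.85% and TTTCGCGC in 2.70% against 3.10%. Over all promoters the shares were 24.3%, 34.3%, 1.05%, 3.15% and 0.816%. No motif searched contains another. The median GC content was 43.3% at ribosomal protein summits, 45.8% at other promoter summits and 33.8% in promoters at the same distance. In ribosomal protein genes without a peak it was 37.3% at that distance. A match of letters is a description and not evidence of a site.

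To see what the summits share, all 8-letter words were counted, and those in at least 7 of the 37 windows and under 2% of other promoter summits were kept. The rule was chosen after the data were seen, so the counts that follow describe the choice and are no test. It kept 13 words that join by overlap into 2 chains, 9 words around TACGGTAA and 4 around GGCCTAAA. TACGGTAA was in 10 of 37 windows (27.0%) against 1.28% of other promoter summits and 0.846% of all promoters at the same distance. Among the 40 ribosomal protein genes without a peak it was in 1 window at that distance.

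Over whole promoter windows TACGGTAA was in 11 of 38 ribosomal protein genes with a peak, 3 of 40 without (rpl-18, rpl-21 and rpl-34) and 4.10% of all protein-coding genes. rpl-24.1 and rps-10 hold the same copy under their shared summit, so the 11 genes with a peak held 10 distinct copies. All 10 lay within 100 bp of the summit, at a median of 23.5 bp, as in rpl-3, rpl-20 and rps-1 printed above. TACGGTAA and GGCCTAAA were both chosen from windows of that reach around these summits, so nearness is in part fixed by the choice. Of the 14 ribosomal protein genes with the word, 78.6% had an optimal peak, beside 48.7% of all 78. Of the 804 other genes with it, 7.21% had one, near the background of 6.29%. The word was picked under peaks of ribosomal protein genes, so the share of 78.6% is in part fixed by the choice and is no test. The longer word ACGGTAACACT was chosen for being in the most summit windows of ribosomal protein genes among 11-letter words, with ties settled by the fewest other promoter summits. It was in 37 of all 19973 promoter windows, 10 of them of ribosomal protein genes. Since neighbouring windows overlap, these were 24 distinct copies, 9 of them in windows of ribosomal protein genes. The 8 of these genes with a peak, which hold 7 distinct copies, were rpl-1, rpl-11.2, rpl-24.1, rps-10, rps-13, rps-17, rps-18 and rps-23, and the other 2 were rpl-21 and rpl-34. Of the 27 other genes 11 had an optimal peak (40.7%, background 6.29%). These are not separate cases, since some share copy and summit with a ribosomal protein gene, as dpm-3 does with rps-23. At other promoter summits the word was in 5 of 935 windows.

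GGCCTAAA was found in ribosomal protein promoters with and without a peak. It was in 9 of 37 summit windows (24.3%) against 0.963% of other promoter summits, and in 10 of the 40 windows at the same distance in genes without a peak. Over whole promoter windows it was in 13 of 38 genes with a peak, 12 of 40 without and 3.50% of all protein-coding genes. It lay farther from the summits than TACGGTAA, at a median of 66 bp, with 11 of 14 places within 100 bp. rps-5, rps-6, rpl-10 and rpl-26, which had no summit in any list, all held it. The words of a chain did not all divide alike. ATTTTAGG, in the chain of GGCCTAAA, was in 9 of 37 summit windows and 4 of the 40 windows without a peak. Its whole-window counts were 18 of 38 with a peak and 12 of 40 without (9.34% of all genes). In the chain of TACGGTAA, AAACGAGT was in 9 of 38 and 11 of 40, and ACGGTAAC in 8 of 38 and 3 of 40.

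ACGTTGAATAC was picked by a further rule, also made after the data were seen. Among 11-letter words in at least 4 of the 37 summit windows and not joined by overlap to ACGGTAACACT, it was in the fewest other promoter summits, and its counts are again no test. It was in 25 of all promoter windows, 8 of them of ribosomal protein genes, with 7 distinct copies in those 8. With a peak these were rpl-7A, rpl-39, rps-30, rps-0 and rps-22, and without a peak rpl-13, rpl-32 and rps-20. rpl-39 and rps-30 hold the same copy under their shared summit. Either 8-letter word was in 21 of 47 large (44.7%) and 14 of 31 small subunit promoters (45.2%), against 7.43% of all protein-coding genes, so these shares were close between the subunits.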

How the data were processed

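The study measured 1 group of 2 biological replicates. Nothing in the labels says that they came from separate cultures, and the antibody field gives the target, REF-2, although the tag was precipitated. The authors deposited peak lists on genome build ce11: relaxed lists of each replicate and of both pooled, and the optimal list. The signal per peak and the −log10 q per peak are the authors' values as deposited, and the summit is the deposited offset from the peak start. Not given in the sources used here are the aligner, the peak caller, their versions, the use of a control, the normalization between lists and the depth of each library, which is therefore unknown. At the 38 genes the deposited −log10 q ran from 0.981 to 2.87. Lists on build ce10 were not used here.

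Gene models came from Ensembl release 115 (WBcel235), genome sequence from RefSeq, and coordinates are 1-based. Where a gene had several summits in its window, the strongest was described. Replicate summits were the nearest within 200 bp. Counts, medians and shares were computed with Python 3.11.15, numpy 2.4.6, pandas 2.3.3, scipy 1.17.1 and statsmodels 0.14.6, and the assignment of summits was tested on simulated data. No test was made, since 1 group has no contrast and genes are not replicates. Named with all values were the 10 genes of each subunit with the highest pooled signal; also named were the other genes with a peak, the 5 highest without, those with no summit in any list, the 3 largest rank changes each way, summits near noncoding genes and peaks of the other lists. The genes and lists were chosen with earlier results of these data known.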

Additional observations from a re-analysis of the deposited data

How the results depend on the processing

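The count of 38 ribosomal protein genes with an optimal promoter peak (19 large, 19 small) became 36 to 37 with 1 replicate alone. It was 49 with the 5000 strongest pooled peaks (background 10.9%), 35 with a window of 500 bp (4.78%) and 39 with one of 2000 bp (8.61%), which added rps-16. It moved to 25 in the stronger part of the optimal list (small subunit 11; background 3.79%) and to 25 without summits near noncoding genes (small subunit 12; background 5.07%). It moved to 11 where a summit had to lie in 1 promoter window only (large 6, small 5; background 3.18%). Given to the nearest 5′ end, the count was 26 and that of the small subunit moved to 11 (background 8.28%). The large minus small difference was negative in all of these, from -25.1 to -3.36 points, but they share peaks and are not separate results. In the relaxed lists it was 3.36 points (pooled), -7.34 (replicate 1) and 0.137 (replicate 2). Of the 6 peak lists given an interval, only the strongest peaks of replicate 1 had one that excluded 0. The median log2 ratio of the replicates, 0.16, turned to -0.0216 when centred on all optimal peaks. The share of summits with the Zic-type core was 2.70% and 8.11% within 50 and 200 bp, beside 3.24% and 9.25% of all optimal summits. No paired analysis was possible because there is only 1 group. Depth is unknown and no sample without the fusion protein was analysed here, so a promoter without a peak is only not detected at the authors' threshold.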
